A study of Drosophila melanogaster with 21 samples.

Results

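The comparison was that of young miR-34 mutant brains with brains of age-matched controls, and 6 libraries of 21 in the series belong to it. The mutant libraries were those labelled {delta}miR-34 at 3d (miR-34 replicates 1 to 3), and the control libraries those labelled 5905 (Control) at 3d (Control replicates 1 to 3). The mutant genotype was w1118;;miR-34 and the control genotype w1118, so both carried the w1118 allele of the white eye color gene, and the mutation was in every cell of the fly and not only in the brain. Brains came from males grown on molasses food, and each library was a pool of 20 brains, so variation between single flies is not in these data. PolyA-selected RNA was sequenced, and the values are reads counted per gene. Levels are given as CPM, the reads of a gene per fixed number of reads of its library after scaling between libraries, and a gene was called where its Benjamini-Hochberg adjusted p from edgeR was under 0.05. Of 17612 genes in the table, 9961 had enough reads to be tested.

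MicroRNAs are short RNAs that pair with messenger RNAs, mostly in the 3′ untranslated region, and lower their translation and stability. In Drosophila, miR-34 is processed from a cluster that it shares with miR-277, its level in the adult brain climbs with age, and flies without it live shorter and lose brain integrity. A direct target is a transcript that it represses, which can be higher when it is missing, and further genes can change downstream of such targets.

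The label of the mutant could be checked only through the host transcript, since mature miR-34 was not measured by these libraries. The host lncRNA:CR43459 spans mir-34 and mir-277 (3R:10093761-10101356, Ensembl build BDGP6.54, plus strand) and had 1088, 976 and 1078 CPM in miR-34 brains, against 10.4, 9.42 and 8.63 CPM in Control brains. The neighbouring lncRNA:CR45054, upstream on the same strand, had 845, 855 and 892 CPM in miR-34 brains, against 4.85, 2.33 and 1.75 CPM in Control brains. Both transcripts were high in every library labelled miR-34 and low in every library labelled Control, and a level of the host says nothing on mature miR-34 itself. The label of the tissue fit the defining markers. Neuron markers such as nSyb and elav and glial markers such as repo were read in every library, and photoreceptor markers summed to 36088 to 49969.7 CPM in miR-34 brains and 41126 to 56938 CPM in Control brains, so transcripts of photoreceptors were in these samples too.

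In all, 3130 genes (31.4% of those tested) were called in either direction. Of these, 1640 genes (16.5% of those tested) were higher and 1490 genes (15%) were lower in 3d miR-34 brains. Most changes were small. The median size over called genes was 0.43 on the log2 scale, 1084 called genes (10.9% of genes tested) changed by at least 1.5-fold, and 297 rose and 307 fell by at least 2-fold. The 3 libraries of each genotype did not overlap at 4863 genes (48.8% of genes tested). Most genes given per library below were picked from called genes, so a lack of overlap at them follows largely from the choice. On the first principal component of the 500 most variable genes, which held 70.9% of the variance, the miR-34 libraries lay from 26.05 to 27.5 and the Control libraries from -32.3 to -23.2. Control replicate 2 lay apart from the other controls on the second component, which held 12.4%. Total counts were 18266008 to 23109013 in miR-34 libraries and 19102856 to 21665398 in Control libraries. Without the scaling factors between libraries, 1234 genes were higher and 1798 lower in miR-34 brains, and the median over all genes fell to -0.065, against -0.017 with them.

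**Figure D1:**
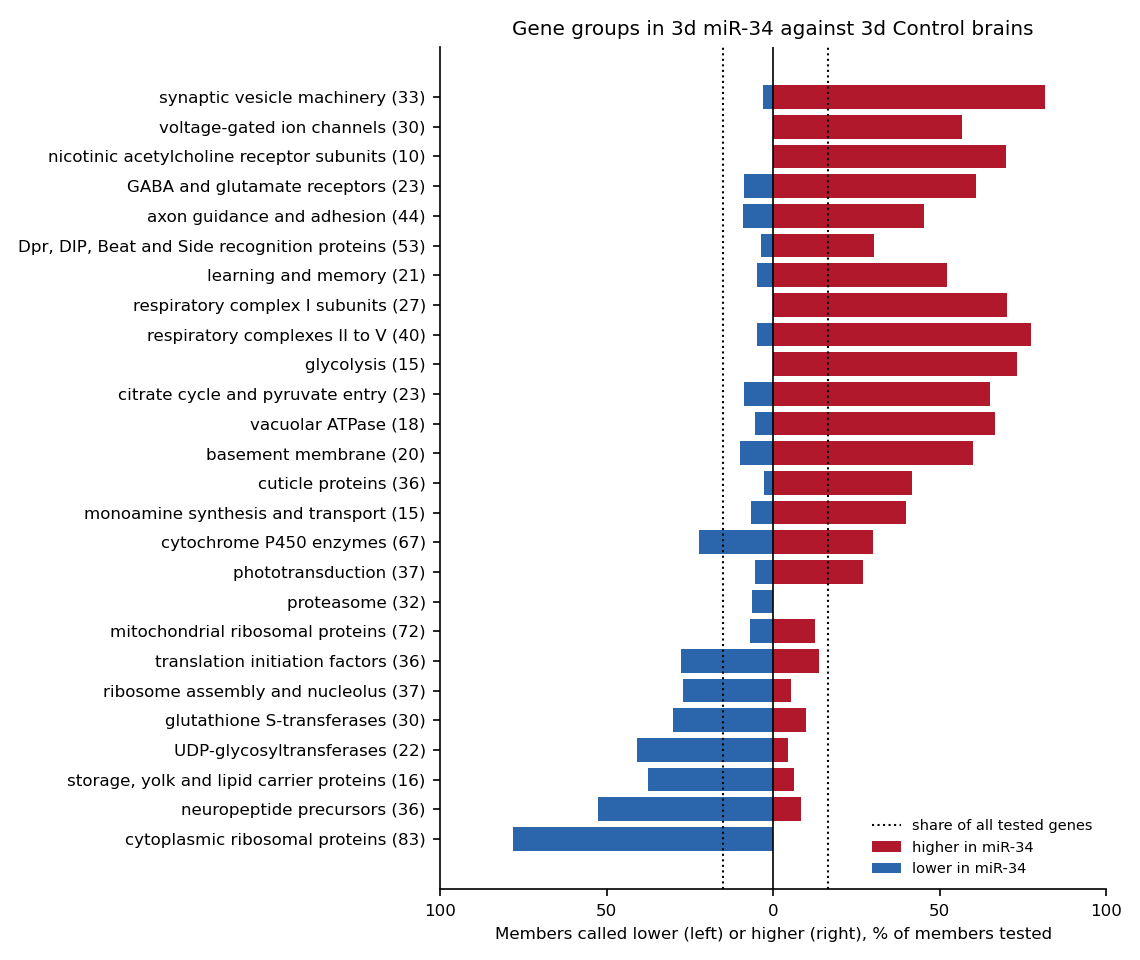
Share of each gene group called lower (blue, to the left) or higher (red, to the right) in 3d miR-34 against 3d Control brains, as a percentage of members tested (number in parentheses), with dotted lines at the shares of all tested genes (16.5% higher, 15% lower). Synaptic and energy groups extend to the right and cytoplasmic ribosomal proteins and neuropeptide precursors to the left.

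Genes of the synapse rose together in the young mutant brain. Of 33 genes of the synaptic vesicle machinery, which loads, docks, fuses and retrieves vesicles, 27 rose and 1 fell, with a median log2 fold change of 0.32 against -0.017 over all genes. Syn, which encodes synapsin, the phosphoprotein that tethers vesicles in the reserve pool, had 1607, 1548 and 1564 CPM in miR-34 brains, against 757, 828 and 784 CPM in Control brains. The groups were far apart, and the replicates of each genotype were close to one another (log2 fold change 0.99 ± 0.061 (SE), adjusted p = 5.92e-08). Syt1, the calcium sensor of fast release, had 2689, 2560.1 and 2614 CPM in miR-34 brains, against 1694, 1878 and 1886 CPM in Control brains (log2 fold change 0.53 ± 0.065 (SE), adjusted p = 4.24e-05). Its groups did not overlap either. Csp, a chaperone of the vesicle membrane, and shi, the dynamin that pinches off recycled vesicles, rose by 0.54 and 0.50 on the log2 scale (adjusted p = 2.95e-06 and 2.82e-05). Nsf2, a factor that takes spent fusion complexes apart, was the member that fell (log2 fold change -0.23 ± 0.072 (SE), adjusted p = 0.0245), and its call was lost in 3 of 6 refits that each left out 1 library. Snap25 and unc-13, of the fusion and priming machinery, did not pass the test (0.16 and 0.093). The count of rising vesicle genes was 20 without scaling factors and 22 to 27 when each library was left out in turn.

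Ion channel genes gave rises and no fall. Of 30 voltage-gated ion channel genes 17 rose and none fell, with a median of 0.24. The risers included Shal and Sh, which encode A-type potassium channels, Ih, the hyperpolarization-activated cation channel, and the inward rectifier Irk2. Sh had 1864, 1821 and 1845 CPM in miR-34 brains, against 1147, 1382 and 1385 CPM in Control brains, with Control replicate 1 the lowest library (log2 fold change 0.50 ± 0.083 (SE), adjusted p = 0.000513). The sodium channel gene NaCP60E and the calcium-activated potassium channel gene slo did not pass the test, at 0.24 and 0.18. The channel count was 12 after a correction for exon length, which removed from each library its smooth trend with the length of genes. It was 10 without scaling factors, 10 without Control replicate 1 and to 11 without miR-34 replicate 1.

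Receptors for acetylcholine, the main excitatory transmitter of the fly brain, gave 7 rises and no fall among 10 subunits, with a median of 0.28. nAChRalpha6, the subunit that spinosyn insecticides act on, had 598, 594 and 558 CPM in miR-34 brains, against 391, 431 and 433 CPM in Control brains (log2 fold change 0.48 ± 0.072 (SE), adjusted p = 0.000231), and the groups did not overlap. nAChRalpha2, nAChRalpha3 and nAChRbeta1 rose by 0.37, 0.42 and 0.38 on the log2 scale. nAChRalpha7 and nAChRalpha4 had 0.25 and 0.20 and missed the threshold. The count of rising subunits was 5 without scaling factors, 5 to 7 when each library was left out in turn, and 9 by DESeq2.

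Among 23 genes of GABA and glutamate transmission, 14 rose and 2 fell, with a median of 0.31. Gad1, which makes the inhibitory transmitter GABA from glutamate, had 1629, 1528 and 1505 CPM in miR-34 brains, against 869.6, 827 and 912 CPM in Control brains. All miR-34 libraries were above all Control libraries (log2 fold change 0.84 ± 0.072 (SE), adjusted p = 1.84e-06). The subunit genes Grd (GABA-gated), Nmdar2 (NMDA type) and GABA-B-R2 (metabotropic) rose by 0.75, 0.54 and 0.49. The members that fell were GluRIIA, a glutamate receptor subunit best known from the larval neuromuscular junction, and Grik, of the kainate type. GluRIIA had 5.33, 4.03 and 5.21 CPM in miR-34 brains, against 10.4, 11.9 and 10.6 CPM in Control brains, which is 2.25 times lower in miR-34 brains (log2 fold change -1.17 ± 0.12 (SE), adjusted p = 6.61e-06).

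Adhesion genes that pattern connections rose more often than they fell. Of 44 axon guidance and adhesion genes 20 rose and 4 fell, and of 53 genes of the Dpr, DIP, Beat and Side recognition proteins 16 rose and 2 fell. The rises were fewer under other scaling. Without scaling factors 10 guidance and 8 recognition genes rose, and after a correction for exon length 13 guidance genes rose and 7 fell and 9 recognition genes rose. The recognition genes gave 8 rises without Control replicate 1, without miR-34 replicate 1 or without miR-34 replicate 2. DIP-delta, a cell surface partner of Dpr proteins, had 155, 147 and 144 CPM in miR-34 brains, against 55.0, 53.4 and 49.8 CPM in Control brains (log2 fold change 1.496 ± 0.079 (SE), adjusted p = 2.09e-08). Its groups did not overlap. Fas1, an adhesion molecule, and Nrg, the neuroglian of axons and septate junctions, rose by 0.58 and 0.78. The ligand gene sli, a midline repellent, and trn, a leucine-rich repeat adhesion gene, fell by 0.26 and 0.44 on the log2 scale, with the call of sli lost without Control replicate 2. Of 21 learning and memory genes 11 rose, CaMKII and Pka-R1 among them (log2 fold changes 0.37 and 0.33), and CrebA fell (log2 fold change -0.44 ± 0.15 (SE), adjusted p = 0.0479), a call lost in every refit that left out 1 library. The 11 rises were 5 without scaling factors, Control replicate 1 or miR-34 replicate 2, and 6 without miR-34 replicate 1.

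Of 10 neuron markers 8 rose and none fell, and their summed level was 13516 to 14096 CPM in miR-34 brains and 10245 to 10931 CPM in Control brains. Most of these risers (Syt1, nSyb, brp, VGlut, VAChT and Gad1) also belong to the synaptic or transmitter groups above, so their rise restates those counts. Of the markers outside those groups Appl and futsch rose by 0.19 and 0.28, and elav and fne did not pass. The marker count was 5 without scaling factors, after a correction for exon length, without Control replicate 1 or without miR-34 replicate 1. None of them was at 0 in all 6 libraries. elav, the pan-neuronal RNA-binding protein, had 237, 262 and 227 CPM in miR-34 brains, against 212, 204 and 204.6 CPM in Control brains (log2 fold change 0.23 ± 0.088 (SE), adjusted p = 0.0655), and fne, of the same protein family, had 0.064. Astrocyte-like glia markers gave 4 rises and 1 fall among 7, pan-glial markers 2 rises among 4, and the summed levels were 6146 to 6459 CPM in miR-34 brains and 5036 to 5694 CPM in Control brains for astrocyte-like and 2174 to 2311 CPM in miR-34 brains and 1469.9 to 1709 CPM in Control brains for pan-glial markers. Most of the pan-glial sum was nrv2, with 44526, 38119 and 35216 reads in miR-34 brains, against 26935, 25814 and 31998 in Control brains. The nuclear marker repo had 2344, 2032 and 1718 reads in miR-34 brains, against 1854, 2119 and 2323 in Control brains, and did not pass. The astrocyte-like marker that fell was alrm (log2 fold change -0.47), and Gs2 held the largest part of the astrocyte-like sum. In bulk RNA, more cells of a type and more RNA per cell cannot be told apart, and the part of cell type composition in the synaptic genes was not tested.

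Energy metabolism rose as a second block. Of 27 complex I genes 19 rose and none fell, and of 40 genes of complexes II to V 31 rose and 2 fell, with medians of 0.21 and 0.29. These genes build the chain that passes electrons to oxygen and the synthase that makes ATP. ATPsynC, the rotor ring subunit of ATP synthase, had 2161, 2213 and 2302 CPM in miR-34 brains, against 1507, 1506 and 1498 CPM in Control brains (log2 fold change 0.57 ± 0.058 (SE), adjusted p = 7.95e-06). The control libraries were nearly equal and every mutant library was above them. ATPsynD, ATPsyngamma and Cyt-c-p, which encodes the cytochrome c of the respiratory chain, rose by 0.52, 0.53 and 0.49. In complex I, ND-B18 and ND-42 rose by 0.73 and 0.45. UQCR-11, of complex III, fell (log2 fold change -0.33 ± 0.073 (SE), adjusted p = 0.00346), and COX7AL, a low gene of the complex IV family, had 2 reads over the 3 miR-34 libraries and 22 over the 3 Control libraries, a ratio of 0.0941 with a 95% counting interval from 0.0107 to 0.383. The complex I count was 12 without scaling factors, and 27 after a correction for exon length. For complexes II to V the count was 28 and 34 under these settings. When each library was left out in turn, 13 to 20 complex I genes and 23 to 29 genes of complexes II to V rose.

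The matrix and cytosolic steps that feed this chain went along. Of 23 genes of the citrate cycle and pyruvate entry 15 rose and 2 fell, and of 15 glycolysis genes 11 rose and none fell (medians 0.24 and 0.33). Idh3a, the catalytic subunit of the NAD-dependent isocitrate dehydrogenase, had 457, 447 and 466 CPM in miR-34 brains, against 309, 302 and 319.6 CPM in Control brains (log2 fold change 0.56 ± 0.046 (SE), adjusted p = 1.13e-06). muc and Pdhb, of the pyruvate dehydrogenase complex, rose by 0.65 and 0.48. Gpdh1, of the glycerol phosphate shuttle, and Pgk, which makes ATP in glycolysis, rose by 0.64 and 0.64, while Eno and Gapdh2 had 0.089 and 0.18 and did not pass. The members that fell were Idh, the NADP-dependent isocitrate dehydrogenase that supplies reducing power in the cytosol (log2 fold change -0.57 ± 0.078 (SE), adjusted p = 0.000102), and Pepck2, a gene of glucose synthesis (log2 fold change -0.83 ± 0.27 (SE), adjusted p = 0.0468), whose call was lost in 5 of 6 refits that left out 1 library.

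Transcripts made inside mitochondria did not follow. Of 15 genes of the mitochondrial genome 1 rose and 2 fell, with a median of -0.15, and after a correction for exon length 2 rose and 1 fell. mt:CoI, the core subunit of complex IV, had 15678, 15010.5 and 16918 CPM in miR-34 brains, against 23186, 19234 and 19137 CPM in Control brains, and Control replicate 1 was the highest library (log2 fold change -0.37 ± 0.11 (SE), adjusted p = 0.0168). mt:CoI and mt:Cyt-b each lost their call in 3 of 6 refits that left out 1 library. Mitochondrial ribosomal proteins gave 9 rises and 5 falls among 72 (12.5% and 6.94%, against 16.5% and 15% of all genes). Their median was 0.0023, and -0.046 without scaling factors, where 6 rose and 7 fell. After a correction for exon length 18 rose and 2 fell.

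The vacuolar ATPase, the proton pump that acidifies synaptic vesicles and lysosomes, gave 12 rises and 1 fall among 18 genes (median 0.24). Vha55, the B subunit that binds ATP, had 932, 943 and 917 CPM in miR-34 brains, against 659.7, 680.0 and 711 CPM in Control brains (log2 fold change 0.45 ± 0.051 (SE), adjusted p = 2.23e-05), and the groups did not overlap. Vha68-1, Vha26 and Vha100-1 rose by 0.43, 0.35 and 0.38. VhaAC45RP, related to an accessory subunit, fell (log2 fold change -0.52 ± 0.058 (SE), adjusted p = 1.64e-05). Among the most abundant risers was another ion pump, the sodium pump. Its alpha subunit Atpalpha had 10673, 10518 and 10571 CPM in miR-34 brains, against 6467, 6874 and 7359 CPM in Control brains, and its beta subunit gene nrv3 rose by 0.59 on the log2 scale. At lysosomal enzymes and lipid export the counts ran the other way, with 2 rises and 6 falls among 23. Npc2h, a sterol-binding protein gene, fell (log2 fold change -1.18 ± 0.19 (SE), adjusted p = 0.00141), and Cln7, a lysosomal membrane transporter gene, rose (log2 fold change 1.34 ± 0.15 (SE), adjusted p = 1.85e-05).

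**Figure D2:**
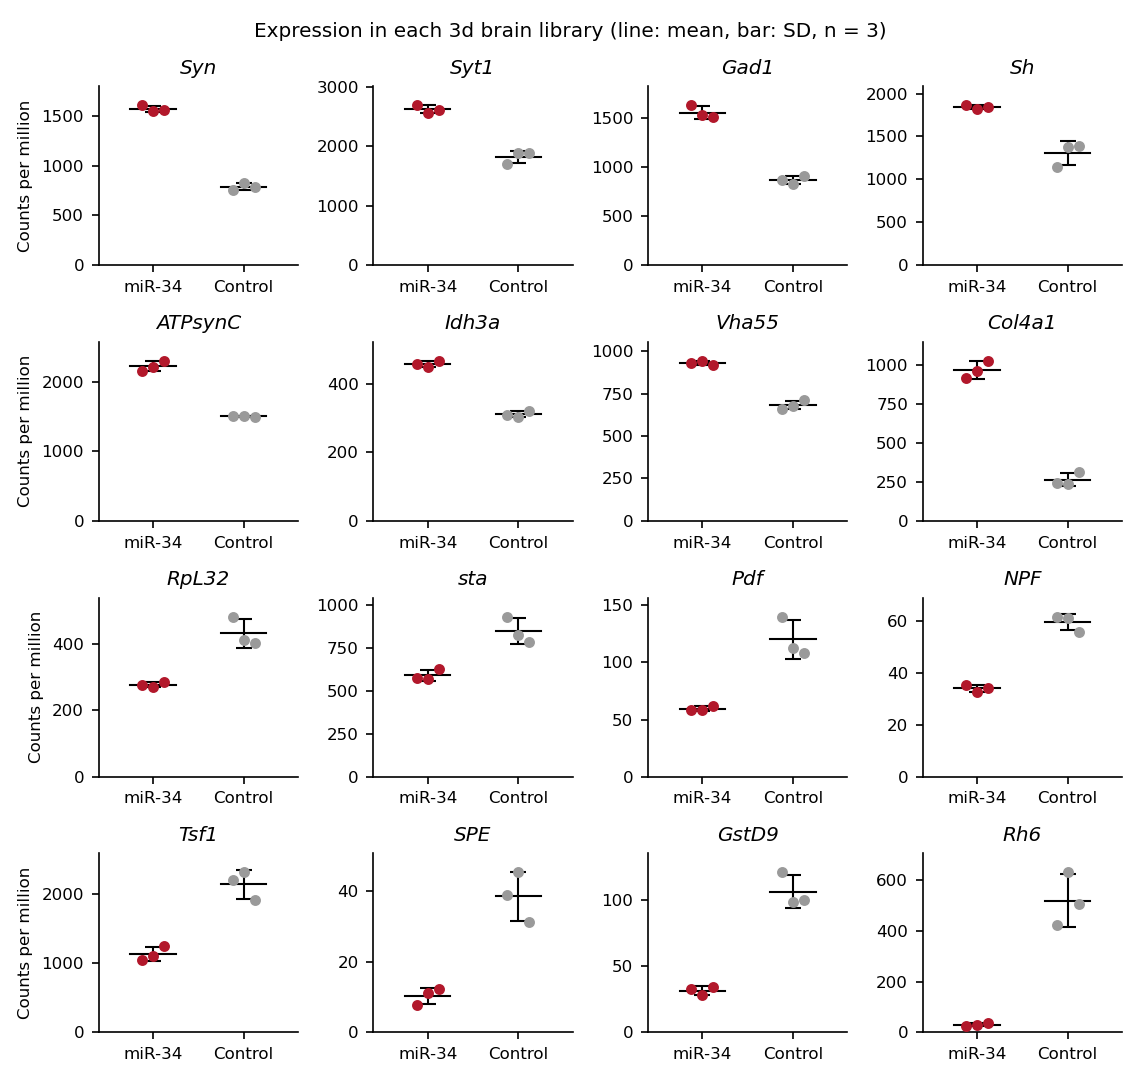
Levels of 16 genes in each 3d library, in CPM on axes that start at 0, with miR-34 libraries in red on the left, Control libraries in gray on the right, a line at the mean and a bar of 1 SD (n = 3). The 16 genes were picked from called genes, so the lack of overlap between genotypes at each of them follows from the choice. Over all genes tested, 48.8% do not overlap. Replicates of a genotype lie closer together at some genes, such as ATPsynC, than at others, such as Rh6 and SPE.

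Cytoplasmic ribosomal proteins fell as a group at 3d. Of 83 genes tested 65 fell and none rose, and the median was -0.34. In 71 of 83 genes every miR-34 library was below every Control library, where 48.8% of all genes tested did not overlap in either direction. Their summed level was 34529 to 38205 CPM in miR-34 brains and 43079 to 49215 CPM in Control brains. RpL32, a protein of the large subunit, had 275, 270.5 and 284 CPM in miR-34 brains, against 481, 411 and 402 CPM in Control brains (log2 fold change -0.64 ± 0.079 (SE), adjusted p = 3.96e-05). Control replicate 1 was the highest, and the other control libraries were still above every mutant library. sta, of the small subunit, had 577, 569 and 629 CPM in miR-34 brains, against 933, 828 and 785 CPM in Control brains (log2 fold change -0.52 ± 0.069 (SE), adjusted p = 8.09e-05), and RpL3 and RpL29 fell by 0.51 and 0.60. The group count was 54 after a correction for exon length, with a median of -0.22, and was between 48 and 76 under all alternatives. Exons of 29 of these 83 genes overlap another gene, such as a small nucleolar RNA, so the counts of those members are uncertain.

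The rest of the translation apparatus gave calls in both directions. Of 36 initiation factor genes 5 rose and 10 fell (13.9% and 27.8%, against 16.5% and 15% of all genes). Without scaling factors 1 rose, and 1 or 2 rose in every refit that left out 1 library. Members of the eIF3 complex, the scaffold that brings the small ribosomal subunit to the messenger RNA, moved both ways. eIF3a rose (log2 fold change 0.42 ± 0.074 (SE), adjusted p = 0.000697), and eIF3k, eIF3f1 and eIF3m fell by 0.41, 0.37 and 0.31 on the log2 scale. Of 10 elongation and release factor genes eEF1beta and eEF1gamma fell (-0.31 and -0.28, with eEF1gamma lost in 4 of 6 refits that left out 1 library) and none rose, while eEF2, the translocase, had 2078, 2019.6 and 2283 CPM in miR-34 brains, against 2092, 2041 and 2044 CPM in Control brains and did not pass. Ribosome assembly and nucleolar genes gave 2 rises and 10 falls among 37, and 4 to 6 falls without Control replicate 1, Control replicate 2, miR-34 replicate 1 or miR-34 replicate 2. Non1, a GTPase gene of large subunit assembly, was the largest riser there, with 491, 449 and 524 CPM in miR-34 brains, against 227, 226 and 227 CPM in Control brains (log2 fold change 1.11 ± 0.069 (SE), adjusted p = 7.51e-08). Aminoacyl-tRNA synthetases gave 3 rises and 4 falls among 32, against 16.5% and 15% of all genes, and 3 and 2 by DESeq2. Thor, the fly 4E-BP that holds back initiation when it is not phosphorylated, had 59.9, 52.2 and 87.2 CPM in miR-34 brains, against 25.6, 24.0 and 30.9 CPM in Control brains (log2 fold change 1.30 ± 0.20 (SE), adjusted p = 0.000985).

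Neuropeptide precursors were the second group that fell. Neuropeptides are cut from larger precursors, released from dense core vesicles and act on receptors far from the synapse, where they set sleep, feeding and stress responses. Of 36 precursor genes 19 fell and 3 rose, with a median of -0.29. Pdf, the output peptide of the clock neurons, had 58.5, 57.9 and 61.8 CPM in miR-34 brains, against 140.0, 112 and 108 CPM in Control brains. The mutant libraries were nearly equal and lay well below the lowest control library (log2 fold change -1.02 ± 0.089 (SE), adjusted p = 2.03e-06). NPF, a feeding and reward peptide, had 35.3, 32.7 and 34.2 CPM in miR-34 brains, against 61.7, 61.2 and 55.9 CPM in Control brains (log2 fold change -0.81 ± 0.084 (SE), adjusted p = 9.82e-06). Orcokinin and Tk, the tachykinin precursor, fell by 0.73 and 0.33. Dsk, a satiety peptide, Hug, of feeding neurons, and Crz, a stress peptide, were chosen after their values were seen, and fell by 0.80, 0.60 and 0.52.

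The precursors that rose were Nplp3, SIFa and Proc. Nplp3 had 135, 156 and 115.2 CPM in miR-34 brains, against 26.9, 29.98 and 24.6 CPM in Control brains (log2 fold change 2.32 ± 0.21 (SE), adjusted p = 3.22e-05). SIFa, made in a few large neurons that reach most of the brain, had 45.5, 47.4 and 49.9 CPM in miR-34 brains, against 25.9, 23.1 and 26.4 CPM in Control brains (log2 fold change 0.92 ± 0.084 (SE), adjusted p = 2.96e-06). Proc, the proctolin precursor, rose by 0.55. Nplp2 had the highest level of the precursors named here, with 875, 1196 and 1404 CPM in miR-34 brains, against 1215, 1279 and 938 CPM in Control brains. Its groups overlapped and it did not pass. The count of falling precursors was 11 after a correction for exon length and 12 without Control replicate 1. Their receptors gave 3 rises and 1 fall among 38, fewer than the 16.5% and 15% of all genes, and the balance was not stable, with 2 rises and 5 falls after the same correction and 2 and 3 without scaling factors.

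**Figure D3:**
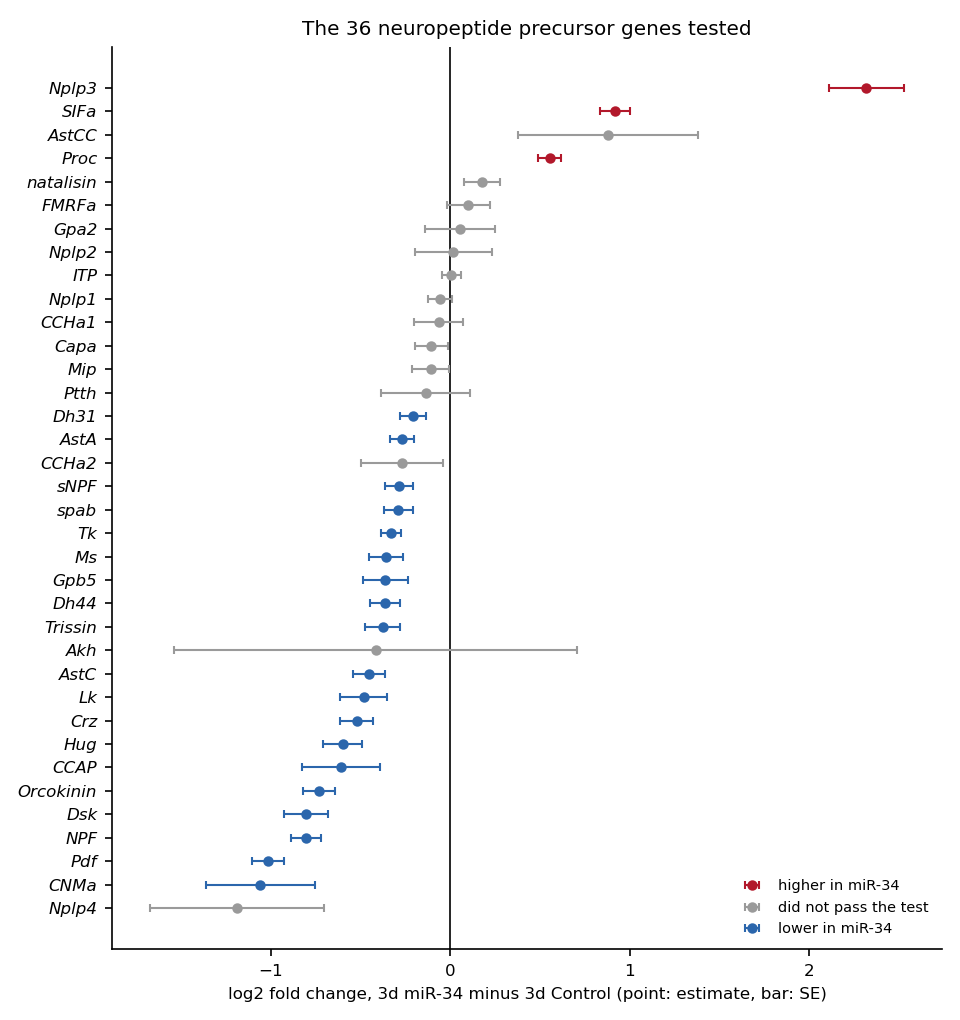
Log2 fold change (3d miR-34 minus 3d Control) of all 36 tested neuropeptide precursor genes, ordered by size, with bars of 1 SE and color for genes called higher (red), lower (blue) or not called (gray). The 19 genes called lower lie between CNMa and Dh31, and Nplp3, SIFa and Proc are the 3 called higher.

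Insulin-like peptides, made by a small group of median neurosecretory cells, split. Ilp2 had 96.7, 103.5 and 117 CPM in miR-34 brains, against 209, 157 and 168 CPM in Control brains (log2 fold change -0.75 ± 0.10 (SE), adjusted p = 0.000136), and Ilp5 fell by 0.56. Ilp3 had 39.1, 41.2 and 39.9 CPM in miR-34 brains, against 12.1, 11.9 and 9.06 CPM in Control brains (log2 fold change 1.86 ± 0.21 (SE), adjusted p = 7.26e-05). The genotypes did not overlap at any of these genes. Over 30 genes of TOR and insulin signaling 5 rose and 2 fell, against 16.5% and 15% of all genes, and without scaling factors 3 rose and 4 fell. gig, the fly TSC2 that restrains TOR, and S6k, a TOR effector, rose by 0.35 and 0.17, with the call of S6k lost in 3 of 6 refits that left out 1 library.

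Monoamine genes were described by role. Pu, the first enzyme of the pterin cofactor that tyrosine and tryptophan hydroxylases need, had 323, 271 and 319 CPM in miR-34 brains, against 59.8, 68.2 and 68.9 CPM in Control brains, the largest rise of the 15 genes (log2 fold change 2.21 ± 0.19 (SE), adjusted p = 2.60e-05). Pu is also needed for red eye pigment. The hydroxylases themselves, ple for dopamine and Trhn for serotonin, had 0.26 and -0.040 and did not pass, nor did Ddc (0.11), the decarboxylase shared by both. Tdc2 and Tbh, the steps to tyramine and octopamine, rose by 0.46 and 0.32. Of the transporters, DAT, which takes up dopamine, had 60.7, 56.7 and 55.5 CPM in miR-34 brains, against 25.1, 25.2 and 28.3 CPM in Control brains (log2 fold change 1.14 ± 0.074 (SE), adjusted p = 1.03e-07), SerT, which takes up serotonin, rose by 0.61, and Vmat, which fills vesicles, rose by 0.50. b, which makes the beta-alanine that is joined to dopamine, fell (147, 159 and 182 CPM in miR-34 brains, against 301, 345 and 350.3 CPM in Control brains, adjusted p = 0.000697). Among 16 monoamine receptors 5-HT7 and Oct-TyrR rose, and Dop2R, TyrRII and Octbeta2R fell (0.30, 0.29, -0.33, -0.63 and -0.26). These were 12.5% and 18.8% of the receptors, against 16.5% and 15% of all genes. DESeq2 gave 4 rises and 3 falls there, and the call of Oct-TyrR was lost without miR-34 replicate 1.

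Matrix and barrier genes rose by more. Of 20 basement membrane genes 12 rose and 2 fell, with a median of 0.63. The basement membrane is the sheet of collagen IV and laminin around the brain. Col4a1, a collagen IV chain, had 913, 962 and 1025 CPM in miR-34 brains, against 245, 234 and 312 CPM in Control brains (log2 fold change 1.87 ± 0.10 (SE), adjusted p = 4.34e-08). vkg, the other chain, and LanA, laminin A, rose by 1.23 and 1.32. prc, a collagen-like matrix protein known from the heart, had 27.8, 31.7 and 30.3 CPM in miR-34 brains, against 1.83, 1.93 and 1.94 CPM in Control brains (log2 fold change 3.97 ± 0.15 (SE), adjusted p = 1.42e-09), and Control libraries were all under 2 CPM. mfas and dally, which encode an adhesion protein and a heparan sulfate proteoglycan, fell by 0.35 and 0.24, and the call of dally was lost without Control replicate 3.

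Genes of the blood-brain barrier glia gave 4 rises and no fall among 7 markers, with a summed level of 1644 to 1824 CPM in miR-34 brains and 985 to 1129 CPM in Control brains. These markers include vkg, described above with the basement membrane, and Nrx-IV, described below with the published miR-34 targets, so their rises are not separate results. A large part of the summed level came from vkg, with 13847, 12693 and 11724 reads in miR-34 brains, against 4861, 5233 and 6917 reads in Control brains. Mdr65, the P-glycoprotein that pumps xenobiotics out, had 256, 266 and 262 CPM in miR-34 brains, against 114, 117 and 116 CPM in Control brains (log2 fold change 1.17 ± 0.046 (SE), adjusted p = 1.72e-09). The groups did not overlap. moody, the receptor that sets barrier tightness, rose by 0.65. Hemocyte markers, of cells that also make collagen IV, gave 2 rises and 1 fall among 7, at 520.4 to 619 CPM in miR-34 brains and 499 to 576 CPM in Control brains. The part of these cell types in the matrix genes was not tested.

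Cuticle protein genes, which in the fly code for chitin-binding proteins of the body wall, trachea and other linings, gave 15 rises and 1 fall among 36 tested of 135 in the table, so the counts hold only for those with enough reads. Most were low. Cpr97Eb had 7.31, 8.02 and 6.89 CPM in miR-34 brains, against 0.431, 0.347 and 0.569 CPM in Control brains (log2 fold change 4.02 ± 0.30 (SE), adjusted p = 5.26e-07), and Cpr62Bb had 13.3, 17.4 and 14.1 CPM in miR-34 brains, against 3.45, 3.72 and 5.03 CPM in Control brains (log2 fold change 1.87 ± 0.18 (SE), adjusted p = 5.76e-06). TwdlG fell (log2 fold change -0.65 ± 0.086 (SE), adjusted p = 7.26e-05). Where at least 10 counts were required in every library, 4 cuticle genes rose. Muscle markers gave 4 rises (8 by DESeq2) and no fall among 11, at 287 to 371 CPM in miR-34 brains and 158 to 209 CPM in Control brains summed, and trachea markers 3 rises among 5, at 55.5 to 66.1 CPM in miR-34 brains and 36.0 to 42.2 CPM in Control brains. Act79B, a muscle actin, had 115.03, 119 and 119.8 CPM in miR-34 brains, against 54.2, 51.7 and 57.0 CPM in Control brains, and serp, a chitin deacetylase of tracheal tubes, had 4.60, 4.96 and 3.48 CPM in miR-34 brains, against 0.971, 1.04 and 0.664 CPM in Control brains. The part of attached tissue in these genes was not tested.

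Genes for storage and carrier proteins of the hemolymph fell more often than they rose. Of 16 storage, yolk and lipid carrier genes 6 fell and NLaz, a lipocalin gene, rose, with a median of -0.90. The call of NLaz was lost without Control replicate 3 or miR-34 replicate 1. Lsp1beta, a larval storage protein, had 7.40, 5.38 and 8.81 CPM in miR-34 brains, against 213, 188 and 79.4 CPM in Control brains (log2 fold change -4.48 ± 0.39 (SE), adjusted p = 5.21e-05). Lsp1alpha had no read in any miR-34 library and 151 reads over the 3 Control libraries, which is at least 48.6-fold lower against a floor of 3 reads over the group, and the median of the list is the same with this gene at that bound. Apoltp and Mtp, which load lipids onto the blood lipoprotein, fell by 0.77 and 1.04, while apolpp, its main protein, had 1605, 1812 and 2166 CPM in miR-34 brains, against 2393, 2646 and 1997 CPM in Control brains and did not pass. Tsf1, the iron carrier transferrin, had 1041, 1095 and 1238 CPM in miR-34 brains, against 2198, 2306 and 1903 CPM in Control brains (log2 fold change -0.92 ± 0.093 (SE), adjusted p = 6.98e-06). Amy-p, a starch-digesting amylase, had 0.551, 0.310 and 0.539 CPM in miR-34 brains, against 38.1, 46.5 and 18.4 CPM in Control brains (log2 fold change -6.18 ± 0.73 (SE), adjusted p = 0.000377). Fat body markers, of the tissue that makes most of these proteins, gave no rise and 4 falls among 10, and their summed level overlapped at 2637 to 3416 CPM in miR-34 brains and 3103 to 4220.5 CPM in Control brains. The part of fat body around the brain was not tested.

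Immune genes were mixed. PPO1, a prophenoloxidase of crystal cells that starts melanin formation, had 5.42, 2.33 and 4.19 CPM in miR-34 brains, against 85.1, 50.7 and 72.7 CPM in Control brains (log2 fold change -4.12 ± 0.42 (SE), adjusted p = 0.000122), and its paralog PPO2 fell by 2.60. The groups were apart at both. SPE, the protease that cuts the Toll ligand, had 7.77, 11.1 and 12.2 CPM in miR-34 brains, against 38.9, 45.3 and 31.4 CPM in Control brains (log2 fold change -1.90 ± 0.18 (SE), adjusted p = 2.43e-05), and spz, the ligand itself, fell by 0.60. The receptor Tl and the transcription factor dl rose by 0.61 and 0.73. Over 39 genes of the Toll and Imd pathways 9 rose and 7 fell, against 16.5% and 15% of all genes, and without scaling factors 8 rose and 10 fell. Of 31 antimicrobial peptide genes 1 rose and 3 fell (3.23% and 9.68%, against 16.5% and 15% of all genes). By DESeq2 with its own adjustment 9 fell. BomS6 had 53.2, 57.9 and 90.7 CPM in miR-34 brains, against 200.5, 223 and 157 CPM in Control brains (log2 fold change -1.53 ± 0.28 (SE), adjusted p = 0.00335), and AttC, with 0.184, 0.103 and 0.180 CPM in miR-34 brains, against 3.40, 36.9 and 9.77 CPM in Control brains, lost its call in 5 of 6 refits that left out 1 library.

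Detoxification enzymes split by family. Of 67 cytochrome P450 genes 20 rose and 15 fell, both above the shares of all genes. Cyp6g1, known for resistance to insecticides, had 48.3, 63.7 and 90.0 CPM in miR-34 brains, against 11.6, 9.57 and 16.5 CPM in Control brains (log2 fold change 2.42 ± 0.38 (SE), adjusted p = 0.00171), and Cyp9f2 had 438, 431 and 485 CPM in miR-34 brains, against 183, 157 and 179 CPM in Control brains (log2 fold change 1.38 ± 0.068 (SE), adjusted p = 1.08e-08). Cyp4p2 had 2 reads over the 3 miR-34 libraries and 407 over the 3 Control libraries, a ratio of 0.00509 with a 95% counting interval from 0.000614 to 0.0185. Glutathione S-transferases gave 3 rises and 9 falls among 30, and UDP-glycosyltransferases 1 rise and 9 falls among 22. GstD9 had 32.8, 27.9 and 34.3 CPM in miR-34 brains, against 121, 98.4 and 100.2 CPM in Control brains (log2 fold change -1.75 ± 0.11 (SE), adjusted p = 1.44e-07), and Ugt35B1 fell by 0.81.

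Vision genes rose more often than they fell, with 10 rises and 2 falls among 37 genes of phototransduction. The falls were rhodopsins. Rh6, a rhodopsin of a subset of the inner photoreceptors, had 26.4, 28.4 and 35.9 CPM in miR-34 brains, against 422, 629 and 503 CPM in Control brains (log2 fold change -4.10 ± 0.36 (SE), adjusted p = 5.85e-05), with every control library far above every mutant library. Rh4 had 422, 398 and 539.7 CPM in miR-34 brains, against 851, 1184 and 969 CPM in Control brains (log2 fold change -1.14 ± 0.31 (SE), adjusted p = 0.0212), a call lost in 3 of 6 refits that left out 1 library. ninaE, the main rhodopsin of the outer photoreceptors, had 15005, 13022 and 18594 CPM in miR-34 brains, against 19289, 27193 and 22369 CPM in Control brains and did not pass, with the groups apart (-0.56, adjusted p = 0.216). None of the 9 photoreceptor markers was called by edgeR, while 3 had an unadjusted p under 0.05 and 1 was higher by DESeq2. rdgB and ninaD, for lipid transfer and carotenoid uptake in the visual cycle, rose by 0.66 and 1.63. Of 21 genes of eye pigment and the kynurenine pathway 5 rose and 3 fell (23.8% and 14.3%, against 16.5% and 15% of all genes). Without scaling factors 3 rose and 4 fell, and 1 rose without Control replicate 1 or without miR-34 replicate 3. v, which opens the kynurenine pathway from tryptophan, had 7.17, 7.65 and 8.99 CPM in miR-34 brains, against 18.5, 18.4 and 12.4 CPM in Control brains (log2 fold change -1.05 ± 0.16 (SE), adjusted p = 0.00038), and cn, the next oxidase of that pathway, was under 1 CPM in every library.

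Published miR-34 targets were followed one by one. The list was drawn from work on these mutant flies, so its count is no independent evidence of direction. Of 7 genes on it 6 rose and none fell. Eip74EF, an ecdysone-induced transcription factor, had 65.6, 73.6 and 67.9 CPM in miR-34 brains, against 41.7, 41.98 and 44.5 CPM in Control brains (log2 fold change 0.69 ± 0.066 (SE), adjusted p = 4.62e-06). Su(z)12 and Pcl, of the Polycomb repressive complex 2 that writes H3K27 methylation, rose by 0.46 and 0.36, with the call of Pcl lost in 3 of 6 refits that left out 1 library. hts (the fly adducin), Nrx-IV and dlg1, of cell junctions and the membrane skeleton, rose by 0.48, 0.46 and 0.31. Lst8, of the TOR complex, had 10.3, 9.72 and 11.4 CPM in miR-34 brains, against 12.6, 11.2 and 12.4 CPM in Control brains and did not pass at 3d (log2 fold change -0.20 ± 0.088 (SE), adjusted p = 0.0992).

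Chromatin genes were read by group. Of 29 Polycomb and Trithorax genes 7 rose and 1 fell, but after a correction for exon length 4 rose and 5 fell. Without scaling factors, or without miR-34 replicate 2, 4 rose and 1 fell. Utx, the H3K27 demethylase, rose by 0.31. Of 28 genes of heterochromatin and histone modification 1 rose and 6 fell (3 without Control replicate 1). The riser was G9a, a histone H3K9 methyltransferase, with 164, 163 and 156 CPM in miR-34 brains, against 69.6, 71.9 and 71.6 CPM in Control brains (log2 fold change 1.18 ± 0.053 (SE), adjusted p = 4.91e-09). HDAC1 and HDAC11, histone deacetylase genes, fell by 0.49 and 0.52. lncRNA:roX1, a noncoding RNA of the male dosage compensation complex, had 3575, 3382 and 3542 CPM in miR-34 brains, against 4789, 4154 and 4546 CPM in Control brains (log2 fold change -0.36 ± 0.072 (SE), adjusted p = 0.00181).

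Several groups held few calls, where 16.5% of all genes tested rose and 15% fell. Of 32 proteasome genes none rose and 2 fell (3 rose and none fell after a correction for exon length). Of 29 autophagy genes 4 rose and 2 fell (1 and 2 without scaling factors), and the share that rose, 13.8%, was near that of all genes. Of 23 heat shock proteins and co-chaperones 1 rose and 1 fell (10 rose by DESeq2), and of 33 cell cycle genes 2 rose and 1 fell (2 and 3 without miR-34 replicate 3). A gene that missed the threshold may still have changed. Apoptosis was not such a group, and of 19 genes 6 rose (31.6%) and 3 fell (15.8%, near the 15% of all genes). Dronc, the initiator caspase, rose by 0.67, and hid, a killer gene, fell by 0.46. Damm, a caspase-like gene, had 55 reads over the 3 miR-34 libraries and none over the 3 Control libraries, at least 19.0-fold higher against a floor of 3 reads over the group.

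Among genes with a mean level of at least 2.0 log2 CPM, the largest rises outside the mir-34 locus were in genes with little annotation. CG7214 had 49.4, 49.4 and 42.5 CPM in miR-34 brains, against 0.270, 0.0991 and 0.474 CPM in Control brains (log2 fold change 7.34 ± 0.27 (SE), adjusted p = 2.70e-08). CG5639 and CG7203 rose by 5.43 and 4.56, and phu by 4.44. The 5 most abundant genes that fell were mitochondrial or noncoding, and lncRNA:noe had 12666, 11504 and 13157 CPM in miR-34 brains, against 20583, 18045 and 19715 CPM in Control brains (log2 fold change -0.64 ± 0.084 (SE), adjusted p = 6.77e-05). The largest falls on the same rule included Rh6, Amy-p and Lsp1beta above, and the pair CG6912 and asRNA:CR45600, whose exons overlap on the same strand and whose reads cannot be told apart (-3.60 and -4.73). Exons of Syn, GluRIIA, elav, ATPsynC, SIFa, prc, apolpp, SPE, AttC, Cyp6g1, Lst8 and lncRNA:roX1, given above with values per library, also overlap another gene, and whether counting used strand was not given in the sources used here.

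The genotype effect varied with the length and level of genes. Over 8 classes of exon length the median log2 fold change at 3d was -0.13 in the shortest class (65 to 881 bases), -0.15 in the next, and higher in each class after that, up to 0.12 in the longest (5356 bases and over). Of the longest genes 31.4% rose and 6.28% fell, and of the shortest 9.25% rose and 19.0% fell. Genes of the top sixth by level rose in 35.0% and fell in 12.4% of cases. By chromosome arm, 24.5% of 98 genes on chromosome 4 rose and 5.10% fell, and on the X, 17.9% rose and 12.2% fell. Within 1 Mb of mir-34 on 3R 16.2% of 197 genes rose and 18.8% fell. The part of gene length in the group results was not tested beyond the correction given above.

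At 20d the same contrast was run in 3 mutant and 3 control libraries of their own. There 16.6% of tested genes were higher and 15.4% lower, and the effect differed between the ages at 1850 genes (18.6% of those tested), with a higher effect at 20d in 8.29% and a lower one in 10.3% of genes (826 and 1024 genes, or 783 and 714 without scaling factors). Cytoplasmic ribosomal proteins turned round. At 20d 66 rose and none fell (median 0.37), and the difference between the ages passed the test in 81 of 83, a count that stayed at 78 or more under every alternative. RpL32 had -0.64 at 3d and 0.37 at 20d (adjusted p of the difference = 0.000156). Synaptic vesicle genes, 27 higher at 3d, had 5 higher and 4 lower at 20d, and the effect was lower at 20d in 24 of 33, or in 15 of either direction after a correction for exon length. GABA and glutamate genes gave 2 rises and 10 falls at 20d, nicotinic subunits 1 and 5, and the Dpr, DIP, Beat and Side genes 4 and 29. In these lists every difference that passed was toward a lower effect at 20d (16 of 23, 8 of 10 and 36 of 53).

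Energy and matrix genes again gave more rises than falls. Complex I genes gave 17 rises and no fall at 20d, complexes II to V 25 and 1, glycolysis 9 and none, and basement membrane 11 and 2. The difference between the ages passed in 2, 2, 1 and 4 of their members, but after a correction for exon length it passed in 9 complex I genes and in 18 genes of complexes II to V, all with a lower effect at 20d. Neuropeptide precursors gave 7 rises and 12 falls at 20d, and the effect differed between the ages in 16 of 36, being higher at 20d in 10 and lower in 6. Of these precursors 3 were called lower at 3d and higher at 20d. After the correction for exon length the effect was higher at 20d in 4 and lower in 8. Pdf had -0.94 at 20d, against -1.02 at 3d, and Orcokinin 0.12, against -0.73 (adjusted p of the difference = 0.697 and 0.000706).

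**Figure D4:**
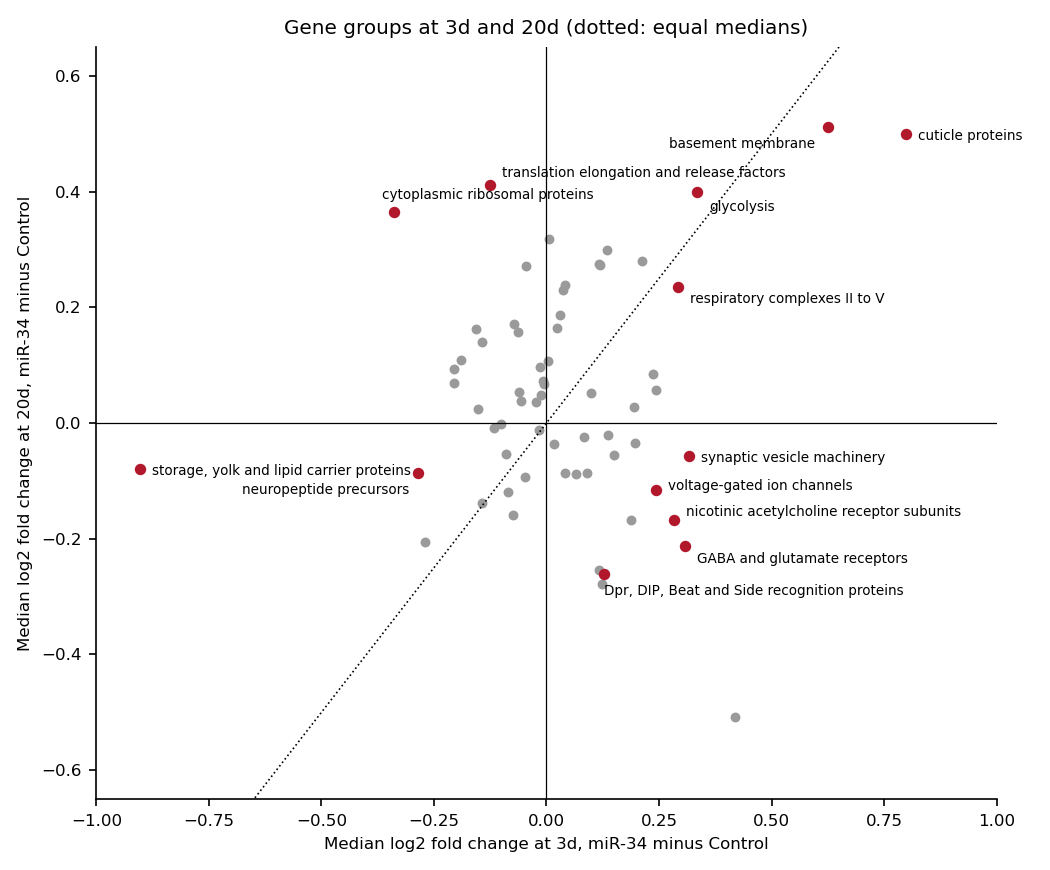
Median log2 fold change (miR-34 minus Control) of gene groups of at least 8 tested genes at 3d (horizontal) and at 20d (vertical). The dotted line marks equal medians, and selected groups are labelled and in red. Cell type marker lists and groups with a median beyond 1 at either age are not drawn. Cytoplasmic ribosomal proteins are at -0.34 and 0.37, and synaptic groups lie to the right of 0 at 3d and below 0 at 20d.

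Genes that changed in young mutants were set beside the course of normal aging in the 9 libraries of set 2, which was sequenced separately, held Control brains only and shared no library with the 3d comparison. Of 1608 genes higher in 3d miR-34 brains and tested in both sets, 842 (52.4%) were lower and 92 (5.72%) higher in 20d than in 3d Control brains, where 20.9% of all 9896 such genes were lower and 19.8% higher. Of 1488 genes lower in 3d miR-34 brains, 627 (42.1%) were higher and 97 (6.52%) lower at 20d. Among 6800 genes not called at 3d, 18.2% were higher and 16.7% lower. Within each of the 8 classes of exon length the higher genes fell with age in 47.2% to 61.7% and rose in 3.85% to 7.62% of cases.

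By group, of 33 synaptic vesicle genes 27 were lower and 1 higher at 20d than at 3d in set 2, of 27 complex I genes 27 were lower, and of 40 genes of complexes II to V 36 were lower and none higher. Cytoplasmic ribosomal proteins gave 66 higher and none lower of 83, and neuropeptide precursors 18 higher and 3 lower of 36. In each of these groups the 3d miR-34 brains lay, against their own controls, on the side opposite to the change with age. Basement membrane genes gave 2 higher and 9 lower. At 50d 55.9% of the higher genes were below their 3d level and 45.9% of the lower genes above it, against 26.1% of all such genes in each direction.

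**Figure D5:**
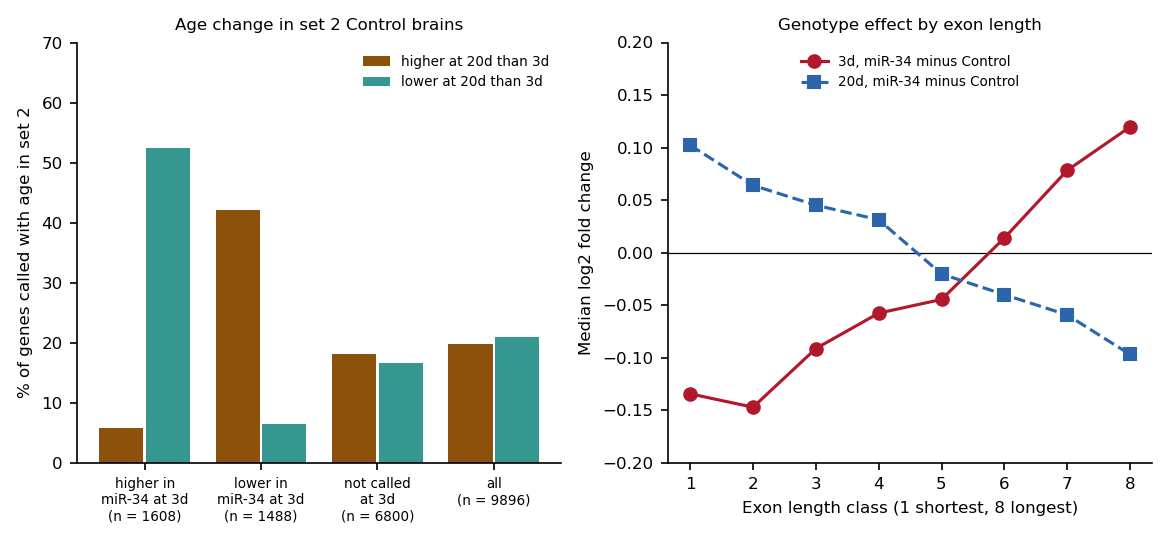
Left, share of genes called higher (brown) or lower (teal) at 20d than at 3d in set 2 Control brains, by their call in 3d miR-34 against 3d Control brains of set 1, with the number of genes below each pair. Right, median log2 fold change (miR-34 minus Control) in 8 classes of exon length, at 3d (red circles, -0.13 in the shortest and 0.12 in the longest class) and at 20d (blue squares, 0.10 and -0.097).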

How the data were processed

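The deposited values were raw read counts per gene, made by the authors with HISAT2 (default settings, release r6.36) and HTSeq from stranded polyA libraries of pooled brains. The strand setting of the counting is not given in the sources used here. Counts of the 12 libraries of set 1 were fitted together with edgeR 4.0.16 in R 4.3.3 (TMM factors, filterByExpr with a minimum of 10 counts, robust quasi-likelihood F-test), with the 3d contrast and the interaction with 20d, and p-values were adjusted over 9961 genes. DESeq2 1.42.0 was an alternative. The 9 libraries of set 2 were fitted apart. Positions came from Ensembl build BDGP6.54 by gene identifier, and a reference gave symbols for 17547 of 17612 genes. Named genes were the 15 largest changes per direction with a mean of at least 2.0 log2 CPM, the 5 highest in CPM per direction, and up to 4 called members per direction and 2 others of each list, plus short lists whole. The members and the 67 lists and 12 marker lists were chosen with earlier results of these data known. On simulated counts with 200 genes changed 2-fold and the same spread set for all genes, edgeR recovered 91.5% of them. Of its calls there, 5.18% were unchanged genes. Most changes in the data were smaller than 2-fold, and recovery of such changes was not simulated. The smallest 3d library held 18266008 counts, and the smallest of set 1, a 20d miR-34 library, 17932132. Intervals and floors (3 counts over the group) cover counting error only. The labels name 3 biological replicates per group, and p-values measure the spread between these pools.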

Additional observations from a re-analysis of the deposited data

Results flagged for a closer look

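The genotype effect was tested for a difference between 20d and 3d at every gene with an interaction term, and 826 genes had a higher and 1024 genes a lower effect at 20d than at 3d. Among cytoplasmic ribosomal proteins the effect differed at 81 of 83 genes (78 to 81 under the alternatives), and among translation elongation and release factors at 8 of 10 (7 to 8), in each case toward a higher effect at 20d. The effect was lower at 20d in all members that differed among nicotinic acetylcholine receptor subunits (8 of 10), GABA and glutamate receptors (16 of 23), monoamine receptors (9 of 16), voltage-gated ion channels (17 of 30) and the Dpr, DIP, Beat and Side recognition proteins (36 of 53). Synaptic vesicle machinery had 25 such genes of 33, of which 24 were lower at 20d, and spectrin and neuronal cytoskeleton 16 of 31, of which 11 were lower. After a correction for exon length these counts were 11 for GABA and glutamate receptors, 10 for ion channels, 15 for synaptic vesicle machinery and 9 for the cytoskeleton. Without miR-34 replicate 1 the monoamine receptors gave 5. No group of 4 or more samples of 1 kind exists at 3d, so single samples were not tested for standing apart.

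Among named genes, opposite calls at the 2 ages occurred in 30. RpL32 had -0.64 at 3d and 0.37 at 20d, and sta -0.52 and 0.33. nAChRbeta1 had 0.38 and -0.32, 5-HT7 0.30 and -0.23, and lncRNA:roX1 -0.36 and 0.29. CG4000 had 3.15 at 3d and -1.19 at 20d (adjusted p of the difference = 2.76e-06).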

How the results depend on the processing

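None of the 381 called genes named by rule changed sign under any alternative in which it was tested. Genes named outside the rule, such as Dsk, Hug, Crz, Appl and futsch, were not in that check. The balance of rises and falls turned in several small or mixed groups, as given beside their counts. In all, 266 of 280 main values stayed on the same side of the threshold or within 1.5 times of the count, as did 478 of 540 other group counts and 7552 of 8120 values of named genes. With a change of at least 1.5-fold required, 524 genes were higher and 560 lower, and at an adjusted p under 0.01 the counts were 1063 and 811. DESeq2 called 1735 higher and 1345 lower. Without scaling factors 1234 were higher and 1798 lower, 40.7% of calls being higher, against 52.4% with them; complex I then had 12 rises and voltage-gated ion channels 10. With at least 10 counts in every library, 4 cuticle genes rose. With offsets for exon length, 11 neuropeptide precursors fell. These offsets and the scaling without factors were added after the data had been seen. Of the genes higher in 3d miR-34 brains, 10.8% had risen with age by 50d, and 10.2% by 20d where a 1.5-fold change was required. Of the lower genes, 11.4% had fallen by 50d. Leaving out each replicate in turn gave 1250 to 1432 higher and 1042 to 1310 lower genes, 12 to 17 falling neuropeptide precursors and 10 to 18 rising ion channels, and 299 of 381 named called genes kept their call throughout. Same-numbered libraries correlated at -0.058, -0.16 and 0.064 in their deviations from the group means, and other pairs at -0.14 to 0.18. With 3 libraries per group this cannot show whether same-numbered pools were prepared together, and the main fit used no pairing. A replicate block gave 1689 higher and 1558 lower genes. Analyses of miR-34 seed sites and their alternatives were not run. Genes of few counts are limited by depth, and a missed threshold does not show that a gene was the same.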

Other observations

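Gap junction and septate junction genes gave rises and no fall at 3d. Of 5 innexin genes 3 rose and none fell, and shakB, the innexin of electrical synapses in the fly escape circuit, had 469, 487 and 501 CPM in miR-34 brains, against 304, 383 and 352 CPM in Control brains (log2 fold change 0.49 ± 0.077 (SE), adjusted p = 0.000345). Of 21 septate junction genes 5 rose (16.5% of all genes did), 16 were not called and none fell, with nrv2, a sodium pump beta subunit of glia, at 0.53. Tetraspanins, small membrane proteins that organize other receptors, gave 6 rises and 3 falls among 23, against 16.5% and 15% of all genes. Tsp5D rose by 0.91, and Tsp42Ep and Tsp42Ed fell by 1.15 and 0.77, with both calls lost without miR-34 replicate 2 and that of Tsp42Ep also without Control replicate 3. Of 31 genes of spectrin and the neuronal cytoskeleton 11 rose and 2 fell (7 rose without miR-34 replicate 1), and beta-Spec rose by 0.39 and Gel, which severs actin filaments, fell by 0.46.

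Odorant-binding proteins, small carriers best known from antennae, gave 3 rises and 3 falls among 24, below the 16.5% and 15% of all genes, with large changes in some of those called. Obp56a had 2.48, 2.79 and 1.92 CPM in miR-34 brains, against 0.108, 0.0991 and 0.0948 CPM in Control brains (log2 fold change 4.50 ± 0.70 (SE), adjusted p = 0.00035). Obp99b had 12.4, 8.58 and 15.2 CPM in miR-34 brains, against 139.9, 125 and 49.4 CPM in Control brains (log2 fold change -3.12 ± 0.44 (SE), adjusted p = 0.000961). Obp44a, the most abundant of those called, fell by 0.54. Among engulfment receptors NimC4, a phagocytic receptor for apoptotic cells, rose (1.61, 2.17 and 1.68 CPM in miR-34 brains, against 0.0539, 0.694 and 0.284 CPM in Control brains, adjusted p = 0.00615), and drpr, the glial engulfment receptor, had -0.067 and did not pass. Of 18 small RNA genes none rose (2 by DESeq2), piwi, of the piRNA pathway, had 1.42, 0.672 and 0.779 CPM in miR-34 brains, against 3.02, 1.93 and 2.13 CPM in Control brains (log2 fold change -1.27 ± 0.28 (SE), adjusted p = 0.00352), and Fmr1 fell by 0.25. AGO1, the Argonaute that carries miRNAs, had 698, 685 and 647 CPM in miR-34 brains, against 628, 671 and 657 CPM in Control brains and did not pass.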
